A study of Mus musculus with 8 samples.

Results

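The cytosolic ribosomal protein genes encode the proteins of the ribosome that translates messages made in the nucleus. Members were the protein-coding mouse genes whose symbol begins with Rpl or Rps and a digit, together with Rpsa, Rplp0, Rplp1, Rplp2 and Fau. Pseudogenes, the Rps6k kinases and Rpl29 were left out. This gave 86 of the 54532 genes in the deposited count files. The symbol alone placed 51, with Rpl7l1, in the large (60S) and 35, with Rps19bp1, in the small (40S) subunit set. Of these, 77 encode core proteins of the ribosome, 8 are paralogues with a partner among the core genes (Rpl3l, Rpl7l1, Rpl10l, Rpl22l1, Rpl36al, Rpl39l, Rps27l and Rps27rt), and Rps19bp1 encodes a protein that binds Rps19. The members lay on 20 chromosomes.

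Polyadenylated RNA was sequenced from bone marrow-derived macrophages (BMDMs), cells of mouse tibial and femoral marrow grown for 7 days in medium with supernatant of L929 fibroblasts, a source of macrophage growth factor. The mice were 6 to 8 weeks old and either wild-type (WT) or Trex1-/- (Trex1-KO). Trex1 is an exonuclease that clears DNA from the cytosol, and its loss leaves DNA that activates the sensor cGAS and its adaptor STING. The 8 libraries formed 4 groups of 2: WT and Trex1-KO cells with the solvent DMSO, and Trex1-KO cells with the STING antagonist H151 (500 nM) or SN-011, each for 12 h. All antagonist libraries therefore carried the Trex1 deletion, and no antagonist was applied to WT cells. The labels give no SN-011 dose, and the study's methods give the same concentration as for H151. The study describes the 2 libraries of a group as independent experiments, and the labels do not say whether these used separate animals, so p-values measure the spread between these experiments. Fewer cells of a type and less RNA per cell cannot be told apart in such bulk samples.

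Ribosomal proteins are made in matched amounts, and each is needed in a single copy by nearly every ribosome, apart from the stalk proteins P1 and P2. Their messages are among the most abundant in a growing cell, and most are short. Most begin with a cytidine followed by a run of pyrimidines, the terminal oligopyrimidine (TOP) motif, through which the kinase mTOR and the RNA-binding protein Larp1 set how strongly they are translated. Macrophages change ribosome production with growth and activation.

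The start of each gene was searched for such a run in the RefSeq promoter table (build GRCm38.p6, 250 bases before to 50 after the annotated start), since these letters are the feature the family is best known for. A match was a whole run of at least 5 C or T, led by a C that lay within 5 bases of the start, on the strand of the gene alone. Of the 67 members in the table, 19 (28.4%) held a match, against 14.5% of all 27025 genes in the table and 16.9% of the other tested genes. By subunit the matches were 10 of 27 for 40S and 9 of 40 for 60S members. The windows below, 25 bases each, are shown for 5 members described by name in the results and for Rps27 with its paralogues Rps27l and Rps27rt, and capitals mark the run. Fau lies at chr19:6057939-6057963 (+), Rpl27a at chr7:109519187-109519211 (+), Rpl13a at chr7:45128729-45128753 (-), Rps6 at chr4:86857351-86857375 (-), Rpl39 at chrX:37085206-37085230 (-), Rps27 at chr3:90213632-90213656 (-), Rps27l at chr9:66946078-66946102 (+) and Rps27rt at chr9:114982723-114982747 (-).
Fau: ccccaCTTCTTCCTCTTTCTTgact
Rpl27a: tgagCTCCTCCCTTTTCCCTTTCTg
Rpl13a: tgcgacaagaCCTCCTCCTTTCCCa
Rps6: agtcgggCCTCTTTTTCgtgacgcc
Rpl39: tccgCCTCTagcgacttcttctaat
Rps27: ctttcgCTCCTTTCCggcggtgacg
Rps27l: tccccgccgCCTCTatcccggaagt
Rps27rt: atcccttgCTTTCCggcggtgacga
The run of Rpl27a was 20 bases long and that of Fau 16. Rps27 held 9 and its paralogues Rps27rt 6 and Rps27l 5. A match describes these letters only.

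Libraries held 11845470 to 17284863 counted reads, of which 318458 to 546887 fell on members. Levels are counts per 1e6 reads (CPM) after TMM scaling of the library totals, and 3 counts, taken as the detection floor, corresponded to 0.175 to 0.255 CPM. Floors cover counting error only. The 8 macrophage markers summed to 29638 to 31889 CPM, most of it Lyz2 (20296 to 23079 CPM). Of the others, Cd68 (773 and 803 CPM in WT, 1012 to 1127 elsewhere) and Fcgr1 (241 and 225, 335 to 533) were higher in all Trex1-KO libraries, and Marco (10.8 and 2.85, 0 to 0.396) was lower. The summed stromal markers (7 genes, led by Col1a1 and Col1a2) ran from 2511 to 2767 CPM in WT and from 1042 to 1476 CPM in the other libraries, and the neutrophil markers (7 genes) from 6.91 to 8.17 and from 46.9 to 76.8 CPM. Trex1 had 0 counts in every library, WT included, so it could not serve to check the genotype. Its gene lies inside that of Atrip, and the part of this in the 0 counts was not tested. Rpl29, which the rule drops, lies 2.63 Mb from Trex1 and stood at 289 and 277 CPM in WT against 3.30 to 4.76 CPM in the 6 Trex1-KO libraries.

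For the members, 2 of the 8 libraries stood apart, Trex1-KO library 1 and H151 library 1. The members' share of all counted reads was 3.40% and 3.37% in the WT libraries and 3.16% and 3.11% in the SN-011 libraries. It was 2.62% in Trex1-KO library 1 and 2.97% in library 2, and 2.59% in H151 library 1 and 2.997% in library 2. The libraries of a group thus lay close together in WT and SN-011 and apart in the other groups. Among the 84 members that passed the filter on low counts, 54 had their lowest CPM of all libraries in H151 library 1 and 13 in Trex1-KO library 1. Counts and medians over all members are therefore also given with libraries left out. Where that leaves a group with 1 library, the fit takes the spread from the other groups and assumes that the lone library varies like them.

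**Figure D1:**
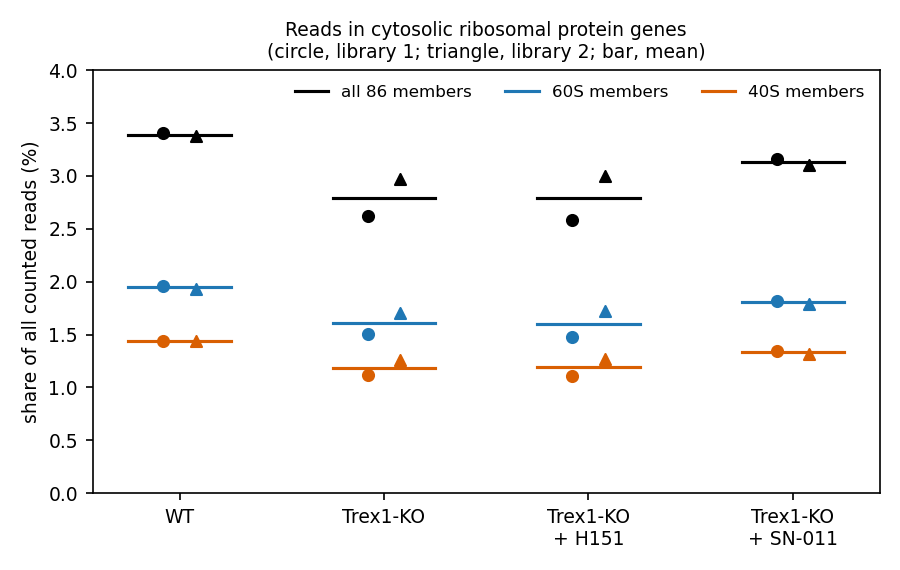
Share of all counted reads (%, axis from 0) that fell on the 86 members, on 60S and on 40S members, by group, with circles for library 1, triangles for library 2 and bars for the mean. The Trex1-KO and H151 circles, at 2.62% and 2.59% for all members, lie below every other library.

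The first comparison asks what loss of Trex1 did to the family. The members' share went from 3.39% ± 0.0201 (SD, n = 2) in WT to 2.79% ± 0.248 (SD, n = 2) in Trex1-KO, a ratio of 0.824, and the groups did not overlap. A two-sided exact permutation test gave p = 0.3333, the smallest p that 2 libraries against 2 can give. Without Trex1-KO library 1 the ratio was 0.876. The 60S share went from 1.95% ± 0.0210 to 1.61% ± 0.144 and the 40S share from 1.44% ± 0.000916 to 1.19% ± 0.103 (SD, n = 2 each). Both subunits were lower by about the same factor, and the ratio of 60S to 40S reads stayed between 1.33 and 1.36 in all 8 libraries.

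With edgeR's quasi-likelihood test over all 14591 tested genes at a false discovery rate (FDR) of 0.05, 9 of the 84 tested members were called lower in Trex1-KO and 0 higher. Of all tested genes 7.11% were called lower and 9.27% higher, so the 10.7% of members called lower is near the background in this fit. The shares also lay close together with DESeq2 (7.14% of members against 5.24% of all tested genes), edgeR's exact test (8.33% against 8.24%), TMM scaling without the members (9.52% against 7.1%) and a filter at 50 counts (11.1% against 8.28%). They lay further apart with 4 other settings, at 34.5% of members against 7.95% of all tested genes with the replicate number as a block, 36.1% against 7.96% in a fit of these 2 groups alone, 51.2% against 11% with scaling by total counts, and 62.4% against 5.07% with a filter at 1 count. The count of 0 higher was also 0 with DESeq2 and with edgeR's exact test, and 0 members were higher at an unadjusted p under 0.05. At that p 40 members (47.6%) were lower, against 12.6% of all tested genes. This count also turned on the library, with 10 members (11.9%) lower without Trex1-KO library 1, against 10.4%, and 61 (72.6%) without library 2, against 11.8%. It was 18 (21.4%) without WT library 1, against 10% of all genes, and 24 (28.6%) without WT library 2, against 10.8%. Both Trex1-KO libraries lay below both WT libraries for 68 members, against 27.5% of all tested genes, and Trex1-KO library 2 alone did so for 69, against 38.1%. The median log2 fold change of the tested members was -0.21 and that of all tested genes 0.00, and 77 members lay below 0 (76 without Trex1-KO library 1). The number of members called moved with single libraries. It was 2 (2.38%) without WT library 1, against 4.30% of all genes tested in that fit, and 2 without WT library 2, against 4.95%. It was 3 (3.57%) without Trex1-KO library 1, against 5.20%, and 39 (46.4%) without Trex1-KO library 2, against 5.5%. The median ran from -0.32 to -0.13 over these 4 fits. Without Trex1-KO library 1 and H151 library 1 together, 14 members (16.7%) were called lower, against 6.83% of all genes tested in that fit, and 1 higher, against 8.05%, with a median of -0.13. Trex1-KO and H151 then hold 1 library each, and the spread in that fit comes from the WT and SN-011 pairs alone. Rpsa, Rps28, Rpl38, Rplp2 and Rpl41 were among the 14, and the member called higher was Rps27a.

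**Figure D2:**
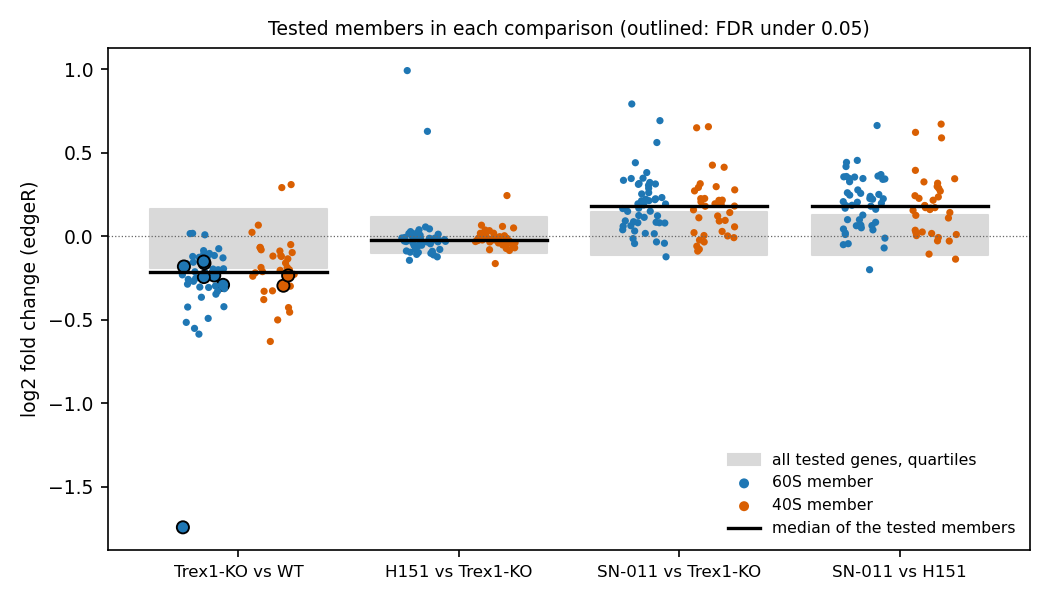
Log2 fold changes (edgeR) of the 84 tested members in the 4 comparisons, 60S in blue and 40S in orange, with a black line at their median, large outlined points for members past the FDR threshold, and grey bands for the quartiles of all tested genes. The medians lie at -0.21, -0.02, 0.18 and 0.18, and all 9 outlined points are in the comparison of Trex1-KO with WT.

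Each of the 9 called members had both Trex1-KO libraries below both WT libraries. Rpl10a, a 60S protein near the exit site of transfer RNA, had 386 and 375 CPM in WT, 316 and 306 in Trex1-KO, 303 and 307 with H151, and 357 and 355 with SN-011. Trex1-KO and H151 lay below WT and SN-011 without overlap. Its log2 fold change in Trex1-KO was -0.29 ± 0.05 (SE, edgeR FDR 0.00159), and it was called under all 13 alternatives tried.

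Rpl39l, a paralogue of Rpl39 best known from testis, had 3.68 and 6.24 CPM in WT, 1.58 and 1.38 in Trex1-KO, 1.55 and 2.96 with H151, and 2.62 and 2.12 with SN-011. Its change was the largest of the 9, -1.74 ± 0.36 (SE, edgeR FDR 0.00356), with both WT libraries above every other. Rpl27a, a 60S protein, had 542 and 521 CPM in WT, 444 and 459 in Trex1-KO, 401 and 428 with H151, and 499 and 456 with SN-011. Trex1-KO lay below WT without overlap, by a log2 fold change of -0.23 ± 0.06 (SE, edgeR FDR 0.0160), and 1 SN-011 library lay below a Trex1-KO library.

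Rpl4 and Rpl5 are long 60S proteins, and Rpl5 with Rpl11 carries 5S ribosomal RNA and binds the p53 regulator Mdm2. Rpl4 had 786 and 754 CPM in WT and 678 to 698 CPM in the 6 Trex1-KO libraries with or without antagonist, a log2 fold change of -0.16 ± 0.05 (SE, edgeR FDR 0.0422). Rpl5 had 532 and 514 CPM in WT and 447 to 475 CPM in those 6 libraries, with a change of -0.18 ± 0.05 (SE, edgeR FDR 0.0363). For both genes the WT libraries lay above all others, and the antagonist libraries lay within or close to the range of the Trex1-KO libraries. Rpl4 was called under 6 and Rpl5 under 5 of the 13 alternatives, and neither with DESeq2, with the exact test or with any 1 library of these groups left out. Of the Rpl5 mRNA 46.6% overlaps another gene, Fam69a, and reads there may not have been assigned to it.

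Rplp0, the stalk protein P0 that holds P1 and P2 on the 60S subunit, showed the same pattern as Rpl4. It had 1107 and 1084 CPM in WT, 992 and 980 in Trex1-KO, 984 and 985 with H151, and 1005 and 991 with SN-011. All 6 Trex1-KO libraries lay below WT, and the log2 fold change in Trex1-KO was -0.15 ± 0.05 (SE, edgeR FDR 0.0427). It was called under 6 of the 13 alternatives, and not with DESeq2, the exact test or any 1 library of these groups left out.

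Rpl36a, a 60S protein, was called at -0.24 ± 0.07 (SE, edgeR FDR 0.0337), with 168 and 163 CPM in WT and 134 and 145 in Trex1-KO. Rps20, a 40S protein of the head of the subunit, had 312 and 315 CPM in WT, 232 and 279 in Trex1-KO, 225 and 269 with H151, and 330 and 297 with SN-011. Library 1 was the lower of the 2 in Trex1-KO and with H151, and the SN-011 libraries lay above all of these. Its change in Trex1-KO was -0.30 ± 0.09 (SE, edgeR FDR 0.0471), and -0.18 without Trex1-KO library 1 (edgeR FDR 0.319). Of the 9 called members, only Rpl10a and Rpl39l were still called without that library.

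**Figure D3:**
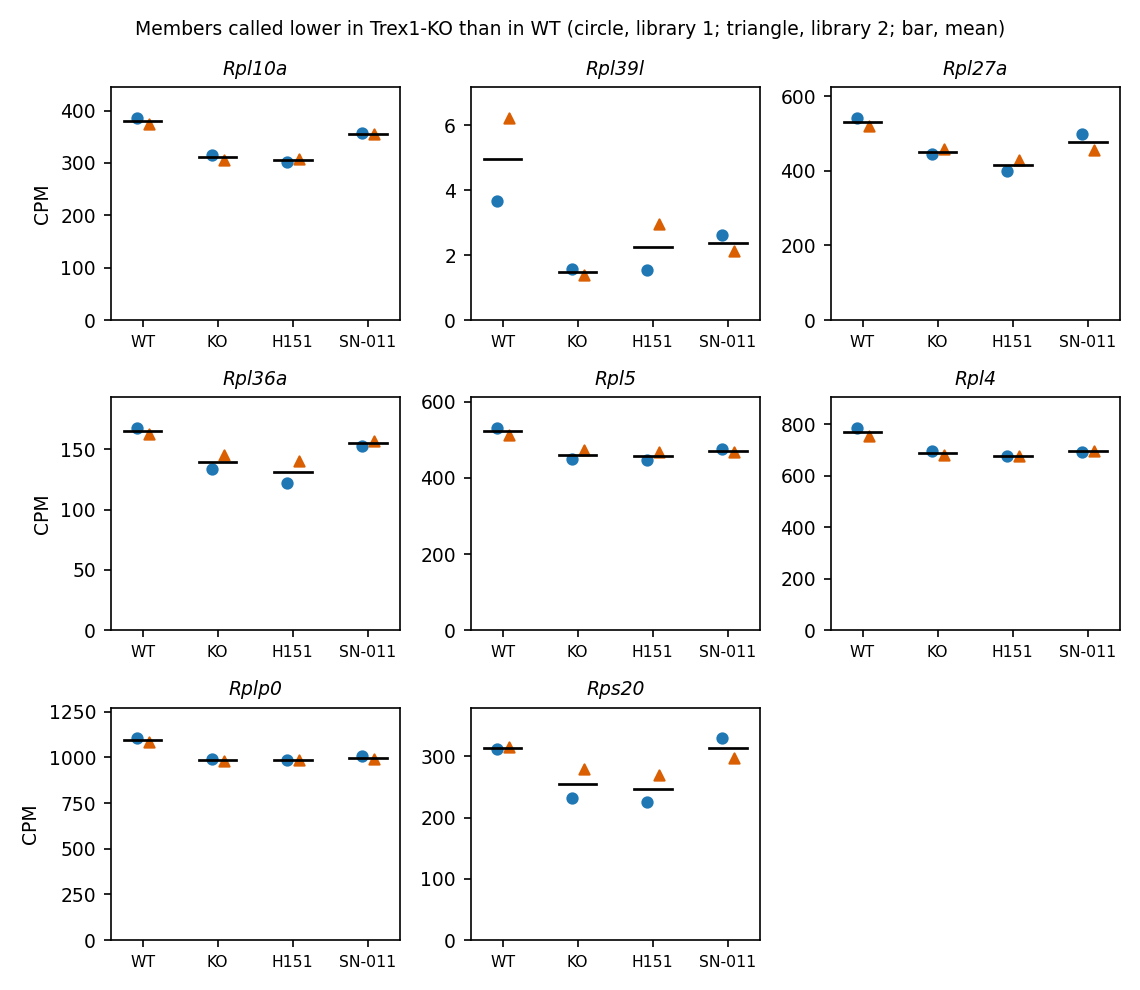
CPM (axes from 0) of 8 members called lower in Trex1-KO than in WT, by group, with circles for library 1, triangles for library 2 and bars for the mean. For each gene both WT libraries lie above both Trex1-KO libraries, and Rpl4, Rpl5 and Rplp0 stay below WT with either antagonist.

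Large differences that were not called were found in some very short members, of which Rps28 and Rps29 were chosen here after their values were seen. Rps28, a 40S protein by the messenger RNA exit, had 182 and 169 CPM in WT, 84.6 and 142 in Trex1-KO, 87.3 and 144 with H151, and 183 and 175 with SN-011. Rps29, a zinc-binding 40S protein, had 308 and 312 CPM in WT, 159 and 279 in Trex1-KO, 146 and 285 with H151, and 342 and 346 with SN-011. In both genes library 1 of Trex1-KO and of H151 was far below library 2, and both libraries of these groups lay below WT and SN-011. The log2 fold changes in Trex1-KO were -0.63 ± 0.21 (SE, edgeR FDR 0.0562) and -0.50 ± 0.25 (SE, edgeR FDR 0.215). Without Trex1-KO library 1 they were -0.32 and -0.17, neither of them called. Rps28 was called lower by edgeR's exact test (FDR 0.0222) and not by DESeq2 (FDR 0.329).

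Rpl38, a 60S protein known for a role in translating Hox messages, followed the same order. It had 138 and 135 CPM in WT, 78.2 and 116 in Trex1-KO, 62.2 and 118 with H151, and 141 and 146 with SN-011. The change in Trex1-KO was -0.49 ± 0.21 (SE, edgeR FDR 0.150), and -0.25 without library 1 (edgeR FDR 0.588). Rps19, a 40S protein whose loss causes Diamond-Blackfan anaemia, had 433 and 418 CPM in WT and 270 and 384 in Trex1-KO, with a change of -0.38 that did not pass (edgeR FDR 0.123) and was -0.16 without library 1. Rpl11 was at 471 and 511 CPM in WT and 364 and 440 in Trex1-KO, with -0.29 (edgeR FDR 0.144), and -0.17 without library 1.

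Rps6, the 40S protein that S6 kinases phosphorylate downstream of mTOR, is known for its place in signalling. Its CPM was 548 and 540 in WT, 536 and 515 in Trex1-KO, 507 and 507 with H151, and 498 and 511 with SN-011, and its log2 fold change in Trex1-KO was -0.05 ± 0.05 (SE, edgeR FDR 0.591). Rpl13a, a 60S protein that can silence inflammatory messages in myeloid cells after interferon-γ, had 13.4 to 20.2 CPM. Of its mRNA 59.3% overlaps Gm45713, so its own level cannot be read from these counts.

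Of the genes added to the membership rule by name, Rpsa, a 40S protein also known as a laminin receptor, had 746 and 738 CPM in WT, 683 and 621 in Trex1-KO, 709 and 641 with H151, and 662 and 662 with SN-011. All Trex1-KO libraries lay below WT, and the change of -0.19 did not pass (edgeR FDR 0.0571). It was called lower without Trex1-KO library 1 (-0.27, edgeR FDR 0.0236), a fit with a single Trex1-KO library, and stood at -0.12 without Trex1-KO library 2 (edgeR FDR 0.332). Fau, made as a fusion of a ubiquitin-like protein with the 40S protein Rps30, had 542 and 549 CPM in WT and 454 and 539 in Trex1-KO, with a change of -0.14 (edgeR FDR 0.457), and -0.03 without library 1. The acidic stalk proteins P1 and P2 help recruit the translation factors. Rplp1 had 864 and 846 CPM in WT and 612 and 835 in Trex1-KO, and Rplp2 had 363 and 351 against 221 and 311. Their changes of -0.24 (edgeR FDR 0.306) and -0.42 (edgeR FDR 0.105) did not pass, and without library 1 they were -0.05 and -0.21.

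**Figure D4:**
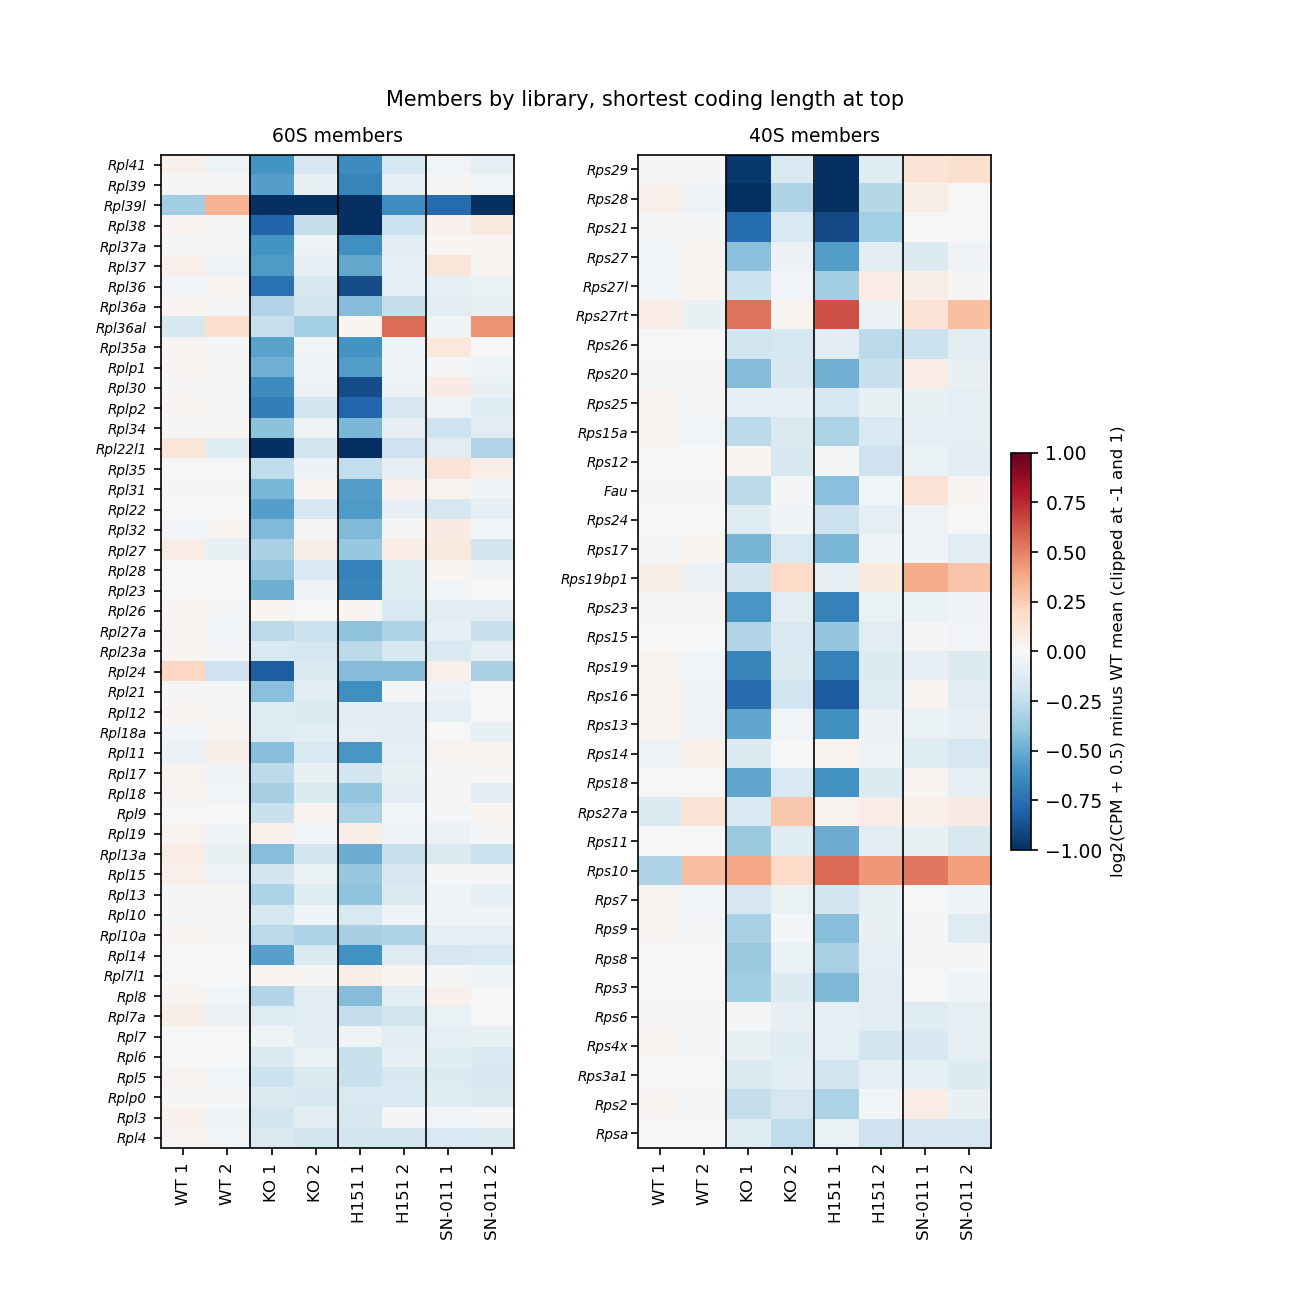
Log2(CPM + 0.5) of tested members in each library minus the mean of the WT libraries, clipped at -1 and 1, with 60S and 40S members in separate columns and the shortest coding length at the top. Trex1-KO library 1 and H151 library 1 are the bluest columns, mostly in the upper rows, and Rps27rt is red in both.

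The gap between the 2 libraries of a group was graded by coding length, which the rule did not use. The 86 members had a median coding length of 448.5 nucleotides (range 75 to 1257), against 1386 for the other tested protein-coding genes. In Trex1-KO 67 of 84 members were lower in library 1 than in library 2, with a median log2 difference of -0.21, and with H151 70 of 84 were lower, with a median of -0.28. In WT and SN-011 the medians were 0.02 and 0.03. For the 12 members of up to 300 nucleotides the median differences were -0.48 in Trex1-KO and -0.53 with H151, and for the 31 of 301 to 450 nucleotides -0.36 and -0.45. They were -0.22 and -0.11 for the 18 of 451 to 600, -0.08 and -0.13 for the 20 of 601 to 900, and 0.02 and 0.00 for the 3 members over 900 nucleotides. Shorter members thus showed the larger gap between these libraries.

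Other tested genes showed the same order in a smaller size. For 269 other genes of up to 300 nucleotides the median differences were -0.14 in Trex1-KO and -0.22 with H151, and for 9050 over 900 nucleotides 0.03 in both. Over the 84 members, Spearman's rho between coding length and the library difference was 0.48 in Trex1-KO, 0.55 with H151, 0.15 in WT and -0.06 with SN-011 (Pearson's r with log2 length 0.43, 0.48, 0.16 and -0.03). These are descriptions over genes that share their libraries. What the members' fold changes owe to coding length was not tested.

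The fold changes of Trex1-KO against WT followed length as well. In Trex1-KO against WT the median was -0.34 for members of up to 300 nucleotides, -0.24 for 301 to 450, -0.16 for 451 to 600, -0.18 for 601 to 900 and -0.15 over 900, against -0.12, -0.04, -0.01, -0.02 and 0.01 for the other tested protein-coding genes in those bins. In each bin the members' median was lower than that of other genes of like length. These medians include Trex1-KO library 1, in which short members fell further below library 2 than other short genes did. They were not computed without that library, and the last bin holds 3 members. Of the members of up to 450 nucleotides 4 of 43 were called, and of the longer ones 5 of 41, against 7.11% of all tested genes. For H151 against Trex1-KO the medians of the members in these bins were -0.02, -0.03, -0.02, -0.02 and 0.00, with no order by length.

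**Figure D5:**
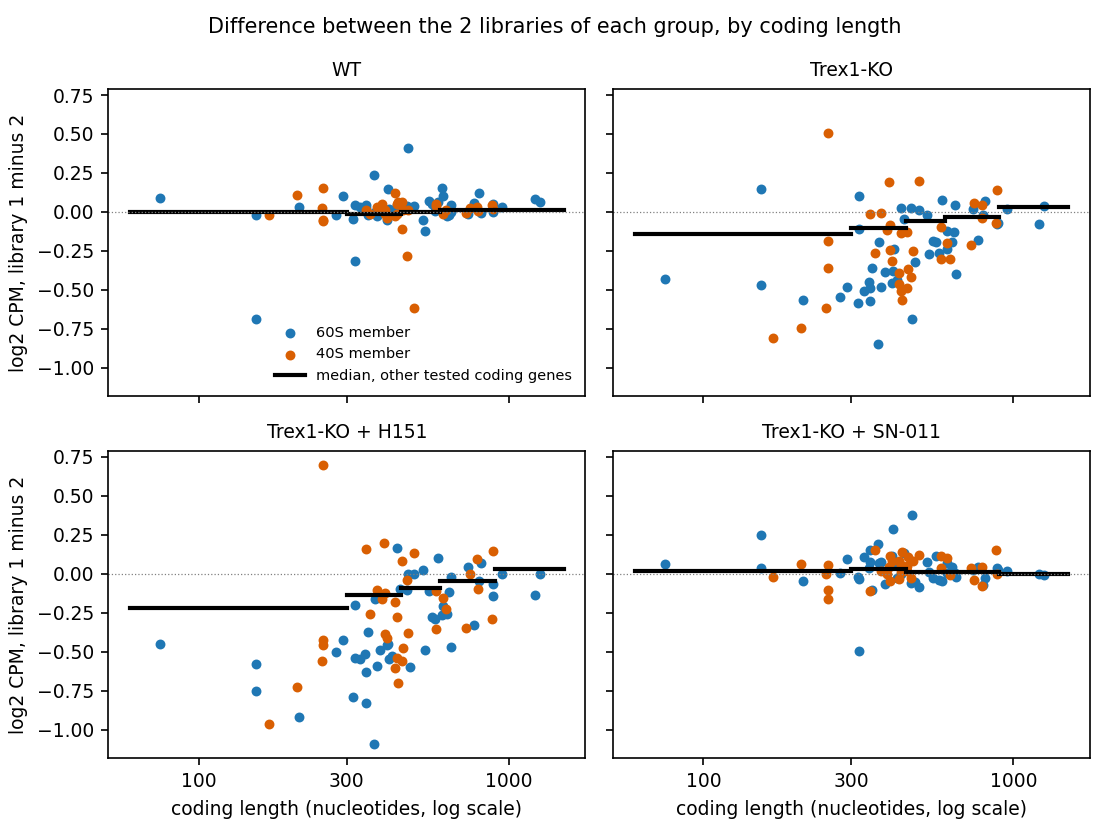
Log2(CPM + 0.5) in library 1 minus library 2 of each group against coding length (nucleotides, log axis) for 84 members, with black bars for the medians of other tested protein-coding genes in 5 length bins. Points fall below 0 at short lengths in Trex1-KO and with H151, where the medians for members of up to 300 nucleotides are -0.48 and -0.53, and lie near 0 in WT and with SN-011.

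The next comparison asks what H151 did to the family in Trex1-KO cells. The members' share was 2.79% ± 0.289 (SD, n = 2) with H151 and 2.79% ± 0.248 without, and the exact permutation p was 1. With edgeR 0 of 84 members were called in either direction, against 0.384% of all tested genes called higher and 1.84% lower. At an unadjusted p below 0.05 the count was also 0, and DESeq2 and edgeR's exact test also called 0. The median log2 fold change was -0.02 for members and 0.00 for all tested genes, and the quartiles of the members ran from -0.05 to 0.00. Leaving out H151 library 2 gave 3 members (3.57%) called lower (Rpl28, Rpl30 and Rpl38), against 1.88% of all genes tested in that fit, and a median of -0.18. At the unadjusted p 38 members (45.2%) were lower in that fit, against 7.23% of all genes. Leaving out H151 library 1 gave 0 called and a median of 0.10, with 13 members (15.5%) higher at the unadjusted p, against 3.51%. Without Trex1-KO library 1 the median was -0.14 and without library 2 it was 0.10, so its sign turned with the library left out. The H151 and Trex1-KO groups each held a library with low members.

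The same question was asked of SN-011, whose libraries carry later sample numbers than those of all other groups. The sources used here do not state whether they were prepared or sequenced with the others. SN-011 and a batch of its own therefore cannot be told apart, here or against H151. The members' share was 3.13% ± 0.0411 (SD, n = 2) with SN-011, a ratio of 1.12 to Trex1-KO (1.06 without Trex1-KO library 1), with no overlap between the groups (exact permutation p = 0.3333, the smallest possible). With edgeR 0 of 84 members were called, against 0.11% of all tested genes called higher and 2.22% lower. DESeq2 and edgeR's exact test also called 0. A filter at 1 count called 28 (32.9%) higher, against 0.717% of all genes tested in that fit. The fit of the 2 groups alone called 3 higher (3.57%, against 0.284%) and the replicate block 2 (2.38%, against 0.336%). At an unadjusted p under 0.05, 20 members (23.8%) were higher and 0 lower, against 4.76% of all tested genes higher. Only 1 member (1.19%) was higher at that p without Trex1-KO library 1, against 3.32% of all genes, and without library 2 the count was 50 (59.5%), against 6.31%. It was 3 (3.57%) without SN-011 library 1, against 2.64%, and 8 (9.52%) without SN-011 library 2, against 3.65%. Both SN-011 libraries lay above both Trex1-KO libraries for 47 members, against 21.8% of all tested genes, and above Trex1-KO library 2 alone for 54, against 36.6%. The median log2 fold change was 0.18, against 0.01 for all tested genes, with 73 members above 0 (64 without Trex1-KO library 1). The median was 0.07 without Trex1-KO library 1, with 0 members called, and without library 2 it was 0.28 with 8 (9.52%) called higher, against 0.277% of all genes tested in that fit. Without library 1 of both Trex1-KO and H151, 4 members (4.76%) were called higher (Rpl10a, Rpl38, Rps28 and Rps29), against 0.536% of all genes tested in that fit, and the median was 0.07. The spread there again comes from the WT and SN-011 pairs alone.

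Single members had different fold changes with SN-011, none of them past the threshold and none tested against another. Rps28 had a log2 fold change of 0.66 ± 0.21 (SE, edgeR FDR 0.166), Rps29 0.65 ± 0.25 (SE, edgeR FDR 0.288) and Rpl38 0.56 ± 0.21 (SE, edgeR FDR 0.277). Without Trex1-KO library 1 these values were 0.34, 0.31 and 0.31. Rpl10a had 0.19 ± 0.05 (SE, edgeR FDR 0.0917), and 0.22 without that library. Rpl4, Rpl5 and Rplp0, called lower in Trex1-KO, stood at 0.02, 0.03 and 0.02 with SN-011 (edgeR FDR 0.936, 0.872 and 0.923). By length, the median was 0.35 for the 12 members of up to 300 nucleotides and 0.02 for the 3 over 900, against 0.13 and -0.01 for other genes of those lengths.

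The antagonists were also compared directly, after the same 12 h of treatment and, by the study's methods, at the same concentration. With edgeR 0 of 84 members were called between SN-011 and H151, against 0% of all tested genes called higher with SN-011 and 0.158% lower. DESeq2 and the exact test also called 0. A filter at 1 count called 35 (41.2%) higher with SN-011, against 0.562% of all genes tested in that fit. At an unadjusted p under 0.05, 31 members (36.9%) were higher with SN-011, against 4.27% of all tested genes, and 1 was lower. Without H151 library 1 the count higher was 7 (8.33%), against 2.11%, and without H151 library 2 it was 57 (67.9%), against 8.37%. It was 8 (9.52%) without SN-011 library 1, against 2.4%, and 18 (21.4%) without SN-011 library 2, against 2.99%. For 45 members both SN-011 libraries lay above both H151 libraries, against 19.7% of all tested genes, and for 52 above H151 library 2 alone, against 33.6%. The median was 0.18, against 0.00 for all tested genes, and 0.06 without H151 library 1. Without H151 library 2 it was 0.34, and 39 members (46.4%) were called higher, against 1.25% of all genes tested in that fit. Without library 1 of both Trex1-KO and H151, 2 members (2.38%), Rps21 and Rps29, were called higher, against 0.0523%, with the spread from the WT and SN-011 pairs alone.

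Several other measures moved with the same groups or libraries. The stromal marker sum was lower and the neutrophil marker sum higher in all Trex1-KO libraries than in WT, as given above. Dcn, on the stromal list, went the other way, with 1.77 and 2.58 CPM in WT and 2.90 to 3.43 elsewhere. Histone genes took 0.0766% and 0.0765% of reads in WT, 0.0562% and 0.0646% in Trex1-KO, 0.0588% and 0.0691% with H151, and 0.0727% and 0.0703% with SN-011, lowest in the same libraries as the members. Messages encoded by mitochondria took 1.54% to 1.57% of reads in WT and 1.17% to 1.37% elsewhere, and annotated ribosomal RNA genes took 0.108% in SN-011 library 1 and 0.0198% to 0.0397% elsewhere. Without the reads of both these groups, the share ratio of Trex1-KO to WT was 0.821. The part of the marker sums and of these shares in the members' differences was not tested.

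Levels per length placed Rplp1 first, at 1565 CPM per kb of mRNA, followed by Rpl41 (1330), Rpl10 (1259), Fau (1110) and Rps14 (936). Rpl41, whose coding length of 75 nucleotides is the shortest of the members, had 685 and 643 CPM in WT, 438 and 592 in Trex1-KO, 429 and 586 with H151, and 650 and 624 with SN-011. Its change in Trex1-KO was -0.37 (edgeR FDR 0.0841) and -0.18 without library 1. Rpl10, a 60S protein that joins late in assembly, stood at -0.11 in Trex1-KO against WT (edgeR FDR 0.263, and -0.06 without Trex1-KO library 1), and Rps14, a 40S protein of the platform, at -0.07 (edgeR FDR 0.535, and -0.02 without that library).

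The levels at the lower end belong partly to counting. Of the 86 members, 69 had at least 1 other annotated gene with a transcript at least 95% identical over 50% of its length, with up to 56 such copies for Rpl21, and read pairs that fit more than 1 place were not counted. For 6 members over 50% of the mRNA overlaps exons of other genes. Rps10, 91.6% of which is shared with the readthrough gene RPS10-NUDT3, stood at 1.77 to 3.67 CPM, and Rpl24, 71.5% of which is shared with Gm28037, at 0.755 to 2.06 CPM. Both are core proteins of every ribosome, and their levels here are those of the reads that could be assigned. The other 4 were Rpl35, Rpl36al, Rpl13a and Rpl23a. For the 16 members with no copy and under 10% overlap, of which 15 were tested, the median in Trex1-KO against WT was -0.24. Of them 4 were called lower, Rpl27a, Rpl39l and Rps20 among them, against 7.11% of all tested genes.

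Several of the paralogues can replace a core protein in some tissues, and each of the 8 stood below its partner in counted reads per length. For Rpl36al, 63.1% of whose mRNA overlaps another gene, that order may come from counting. Per kb of mRNA, Rpl3 stood at 471 CPM and Rpl3l, a muscle form, at 0.0650. Rpl10l, the testis form of Rpl10, had 0 counts in all libraries, which allows up to 0.175 to 0.255 CPM, and neither Rpl3l nor Rpl10l could be tested. Rpl39l stood at 5.03 CPM per kb beside 311 for Rpl39, and Rpl22l1 at 45.2 beside 422 for Rpl22. Rpl22l1 had 34.2 and 28.9 CPM in WT and 15.1 and 27.6 in Trex1-KO, with a change of -0.55 (edgeR FDR 0.228, and -0.21 without library 1), and its partner Rpl22, which binds RNA and represses Rpl22l1 in other cells, stood at -0.35 (edgeR FDR 0.101, and -0.18 without library 1). Both were lower in library 1 than in library 2 of Trex1-KO and of H151.

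Rps27l, a p53 target, stood at 154 CPM per kb and Rps27rt, an intronless copy, at 61.6, beside 772 for Rps27. Rps27rt had 20.8 and 18.6 CPM in WT, 28.8 and 20.2 in Trex1-KO, 31.0 and 18.9 with H151, and 21.7 and 24.4 with SN-011. It was high in the same libraries in which Rps27 was low, with Rps27 at 221 and 284 CPM in Trex1-KO and 200 and 275 with H151. Rps27rt has 4 near-identical annotated copies, which together hold a mean of 3777 counts. Misassigned reads of these copies cannot be told apart from its own. The changes in Trex1-KO were 0.31 for Rps27rt (edgeR FDR 0.370, and 0.02 without library 1), -0.23 for Rps27 (edgeR FDR 0.276, and -0.07 without library 1) and -0.12 for Rps27l (edgeR FDR 0.549, and -0.04 without library 1). Rpl7l1, a factor of ribosome assembly named after Rpl7, had 82.6 to 89.0 CPM in all 8 libraries, and Rpl7 578 to 625. Rpl36al, 63.1% of whose mRNA overlaps Gm49383, stood at 0.528 to 1.41 CPM. Rps4x, the X-linked 40S protein whose copy Rps4l is a pseudogene in the reference and no member, stood at -0.10 in that comparison (edgeR FDR 0.282).

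On chromosome 9, which carries Trex1, lie 7 members, at 5.92 Mb (Rps27rt), 11.1 Mb (Rpsa), 11.5 Mb (Rpl14), 42.1 Mb (Rps27l), 44.9 Mb (Rpl4), 47.1 Mb (Rplp1) and 64.6 Mb (Rps25) from it. Their median log2 fold change in Trex1-KO was -0.16, and 1 of 7, Rpl4, was called, against 7.11% of all tested genes. Rpl14, a 60S protein, had 336 and 336 CPM in WT and 230 and 304 in Trex1-KO (-0.33, edgeR FDR 0.117, and -0.16 without library 1), and Rps25, a 40S protein needed by some viral internal entry sites, 466 and 455 against 431 and 434 (-0.09, edgeR FDR 0.3334). Each lay far from the difference of Rpl29, -6.26 ± 0.10 (SE, edgeR FDR 2.11e-13).

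The pyrimidine run, as matched here, did not set members apart in these medians. Most ribosomal protein messages carry the TOP motif, while 28.4% of the members in the promoter table held a match. The split is therefore not one of members with and without the motif. In Trex1-KO against WT the median was -0.22 for the 19 members with the run, of which 1, Rpl27a, was called, and -0.21 for the 46 tested members without it, of which 6 were called, against 7.11% of all tested genes. With SN-011 against Trex1-KO the medians were 0.19 and 0.16.

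Other genes of ribosome production and translation were described by their counts and medians. Of 77 tested mitochondrial ribosomal proteins, which serve the organelle's own ribosome, 1 (Mrpl41) was called lower in Trex1-KO, with a median of -0.06. Of 20 translation factors with TOP messages 3 were called lower, with a median of -0.08. These were Npm1, a nucleolar chaperone (-0.28, edgeR FDR 0.00442), Eef1b2, an exchange factor of elongation (-0.25, edgeR FDR 0.0414), and Eif4b, an initiation factor (-0.17, edgeR FDR 0.0449). Of 27 ribosome biogenesis genes 2 were called lower, Gnl3 (-0.38) and Nop16 (-0.46), both nucleolar, with a median of -0.14. Of 12 genes of ribosomal RNA transcription 1, Taf1d, was called lower, with a median of -0.08. The 8 tested host genes of small nucleolar RNAs had a median of -0.27, and the lowest, Snhg1, did not pass (-0.44, edgeR FDR 0.0665). Of all tested genes 7.11% were called lower in this comparison.

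In the list for control of translation through mTOR and Larp1, 2 of 17 genes were called lower and 1 higher in Trex1-KO, with a median of 0.03. Of all tested genes 7.11% were called lower and 9.27% higher there. Larp1, which binds TOP messages and both stores and represses them, had 137 and 135 CPM in WT, 155 and 156 in Trex1-KO, 140 and 135 with H151, and 125 and 128 with SN-011. Trex1-KO lay above all other groups, by 0.19 ± 0.06 over WT (SE, edgeR FDR 0.0367), and SN-011 lay below all others, by -0.30 ± 0.06 against Trex1-KO (SE, edgeR FDR 0.0121). The 2 called lower were Ddit4, an inhibitor of mTOR complex 1 (-1.10, edgeR FDR 0.0158), and Eif4ebp1, a repressor of cap-dependent initiation (-0.48, edgeR FDR 0.0328). In that list 0 of 17 genes were called between H151 and Trex1-KO, against 0.384% of all tested genes called higher and 1.84% lower. On the list for ribosomal RNA transcription 1 of 12 was called higher with H151, against 0.384% of all tested genes. This was Myc, a driver of ribosome production, at 17.3 and 16.5 CPM against 12.0 and 9.76 (0.64 ± 0.15 SE, edgeR FDR 0.0407). WT stood at 15.97 and 13.2 CPM and SN-011 at 13.0 and 14.01, between the other groups.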

How the data were processed

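The authors aligned paired reads with hisat2 to mm10 and counted uniquely mapped pairs per gene, and the deposited values are raw counts for 54532 Ensembl genes. The labels' processing notes name HTSeq and the study's methods featureCounts, and versions are not given in the sources used here. Symbols, lengths and positions came from GENCODE mouse release 21 (GRCm38), which held 54495 of the identifiers.

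Groups and library numbers came from sample titles. Genes were kept with filterByExpr (minimum count 10, minimum total 15), and edgeR 4.0.16 in R 4.3.3 was fitted to all 8 libraries with TMM scaling and 1 mean per group, with Benjamini-Hochberg adjustment over 14591 genes and a threshold of 0.05. SE was taken as |log2 fold change| divided by √F. Rpl3l and Rpl10l did not pass the filter. Alternatives were DESeq2 1.42.0, edgeR's exact test, other filters and scalings, a replicate block and leaving out libraries. Copies were found with blastn 2.17.0. Log2 values between libraries used CPM + 0.5. Scripts were tested on simulated data.

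The members and gene lists were chosen with earlier results of these data known. Genes were named by rule: called members, those the membership rule spells out, paralogue pairs, members with roles outside the ribosome, the 5 highest per length, and those on chromosome 9. Rps28, Rps29 and the members listed when a library was left out were named after their values were seen. A called member is counted but not reported by name here.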

Additional observations from a re-analysis of the deposited data

How the results depend on the processing

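Members called in Trex1-KO against WT, 9 in all, numbered 43 with scaling by total counts (51.2% lower, against 11% of all genes), 53 with a filter at 1 count (62.4%, against 5.07%), 30 in a fit of the 2 groups alone (36.1%, against 7.96%), 29 with the replicate block (34.5%, against 7.95%) and 15 without library 1 of Trex1-KO and of H151 (chosen after seeing the data, 16.7% lower, against 6.83%), and 2 to 39 when 1 library was left out. For H151 against Trex1-KO, 0 in all, they were 0 to 3 when 1 library was left out. For SN-011 against Trex1-KO, 0 in all, they were 28 with the filter at 1 count (32.9% higher, against 0.717% of all genes), 2 with the replicate block (2.38%, against 0.336%), 3 in the fit of the 2 groups alone (3.57%, against 0.284%) and 4 without both library 1s (4.76%, against 0.536%), and 0 to 8 when 1 library was left out. For SN-011 against H151, 0 in all, they were 35 with the filter at 1 count (41.2% higher, against 0.562%) and 2 without both library 1s (2.38%, against 0.0523%), and 0 to 39 when 1 library was left out. The cause of these moves was not tested, beyond the libraries named. DESeq2 called 6 members (7.14%, against 5.24% of all genes lower) and edgeR's exact test 7 (8.33%, against 8.24%) in Trex1-KO against WT. Medians over members moved by less than the spread between libraries under every alternative tried. With 1 library left out this could hardly come out otherwise, since the spread was taken from the same libraries. It is therefore no check there. When 1 library was left out, the medians ran from -0.32 to -0.13, -0.18 to 0.10, 0.07 to 0.28 and 0.06 to 0.34 in the 4 comparisons. That of H151 against Trex1-KO turned its sign. Share ratios ran likewise from 0.773 to 0.876, 0.926 to 1.07, 1.06 to 1.20 and 1.05 to 1.21. Rpl7l1, at 0.02 in Trex1-KO against WT, stood at -0.0674 with total counts, -0.00223 without both library 1s and -0.00312 to 0.0268 when 1 library was left out, and scaling by total counts moved the median of all genes to -0.09 there. Rpl10a was called under 13 of 13 alternatives, Rpl39l under 12, Rpl27a under 11, Rpl36a under 9, Rps20 under 8, Rpl4 and Rplp0 under 6 each, and Rpl5 under 5.

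Library numbers were checked as pairs. Deviations from group means of same-numbered Trex1-KO and H151 libraries correlated at 0.24 over all tested genes and 0.81 over members, those of Trex1-KO and SN-011 at -0.02 and -0.33, and the meaning of the numbers is not stated, so the block is an alternative only. With 2 libraries a group the spread is poorly known.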

Other observations

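Rack1, a 40S scaffold outside the symbol rule, had 550 to 599 CPM in all 8 libraries, and its log2 fold change in Trex1-KO was -0.09 ± 0.05 (SE, edgeR FDR 0.309). Rps27a, a 40S protein made as a fusion with ubiquitin, had 356 and 433 CPM in WT and 354 and 473 in Trex1-KO. Its log2 fold change was 0.07 (edgeR FDR 0.761), and it was called higher only in the fit without library 1 of both Trex1-KO and H151, among the 13 alternatives.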
